A study of Mus musculus with 30 samples.

Results

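The blood transcriptome of mice that had been immobilized before fear conditioning was compared with that of mice that were only conditioned. All mice were adult males of the C57BL/6J strain, 2 - 3 months old, and carried no genetic alteration. In the Immo+FC group the limbs of each mouse were restrained for 2 h, a week of rest in the home cage followed, and the mouse then underwent auditory fear conditioning, in which a tone is paired with a foot shock. The FC group was handled in place of immobilization and conditioned in the same way, and both groups were killed 2 h after conditioning. By design the groups therefore differed in prior immobilization on top of conditioning. Mice of a cage were all treated alike, so cage and group cannot be told apart. Handled home cage mice (HC) entered the fit but not the comparison, and there was no group with immobilization alone. Each library held trunk blood of 2 mice pooled within a group, and globin transcripts had been depleted. The comparison used 5 Immo+FC and 5 FC libraries of the 30 in the series, with 4 HC libraries of blood in the same fit. Expression is given as FPKM, fragments per kilobase of transcript scaled to the mapped fragments of the library, and 11512 of 23303 gene entries averaged 0.5 FPKM or more across these 10 and were tested. Just inside this limit, 226 genes had a mean of 0.5 to 0.6 FPKM, and 284 genes at 0.4 to 0.5 FPKM were just outside.

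Whole blood RNA comes from neutrophils, monocytes, lymphocytes, platelets and young red cells, and each of these carries its own set of transcripts. Stress hormones are known to shift leukocytes between blood, marrow and tissue. Glucocorticoids and catecholamines release neutrophils into the circulation, and glucocorticoids draw lymphocytes out of it. Glucocorticoids also act inside leukocytes, where the receptor induces feedback genes such as Fkbp5 and Tsc22d3. In RNA of whole blood, fewer cells of a type and less RNA per cell cannot be told apart.

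The 10 libraries had 19442415 to 25892322 sequences, of which 60.06% to 65.65% mapped to a single place in the Immo+FC libraries and 65.28% to 69.02% in the FC libraries. The part of this mapping difference in the results was not tested apart from the fit with the percent as a covariate given in the closing section. Pearson correlations between libraries on the log2 scale were 0.9495 to 0.9743 within Immo+FC, 0.9613 to 0.9729 within FC and 0.9406 to 0.9729 between the groups. Immo+FC libraries 1 and 2 stood apart from the other 8: they were the highest of the 10 in 1627 genes (14.1% of those tested). Results are therefore given with all 10 libraries and without these 2, a choice made after the data were seen. Among the HC libraries, library 3 was high in erythroid transcripts (list score 2.07, against -0.79 to 0.54 in the other HC libraries) and library 4 had 9081977 sequences. In the fit as reported both affect the comparison only through the shared estimate of spread.

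No gene passed an adjusted p of 0.05 in limma (0 of 11512, 0.0% called), and the smallest adjusted p was 0.517. Genes with an unadjusted p under 0.05 are called nominally higher or lower here: 676 were nominally higher in Immo+FC (5.87%) and 432 nominally lower (3.75%). The counts of every gene list below are to be read beside these shares. Of the 676 higher genes, 496 had Immo+FC libraries 1 and 2 as the highest of the 10. Without these 2 libraries 120 genes were nominally higher and 138 nominally lower, and 0 passed the adjusted threshold in limma. All 5 Immo+FC libraries lay above all 5 FC libraries for 81 genes (0.704%) and below them for 101 genes (0.877%). A difference of at least 2-fold on the log2(FPKM + 0.1) scale was estimated for 145 of the 11512 genes in the higher and 58 in the lower direction. Without Immo+FC libraries 1 and 2 these counts were 63 and 67. With no gene past the threshold, the values below describe these libraries, and "higher" or "lower" without that word refers to the estimate alone.

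The widest group differences among cell types were in neutrophil transcripts. Of 31 tested genes for neutrophil surface receptors, which sense chemokines, bacterial peptides, complement and growth factors, 25 were nominally higher in Immo+FC, against 5.87% of all genes, and 0 nominally lower. All 31 had a log2 fold change above 0, with a median of 0.90, against -0.01 over all tested genes. In 30 of the 31 genes the highest 2 of the 10 libraries were Immo+FC 1 and 2, and in 0 of the 31 did the groups separate. Without these 2 libraries the median was 0.40, 30 of the 31 stayed above 0, and 0 of the 31 had an unadjusted p under 0.05. The count of 25 was 4 without Immo+FC library 1, 5 without Immo+FC library 2 and 6 without FC library 3.

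Cxcr2, the chemokine receptor that draws neutrophils out of marrow and into tissue (chr1:74153994-74161246, RefSeq annotation of GRCm38.p6), had 168, 171, 70.9, 87.3 and 67.7 FPKM in Immo+FC libraries 1 to 5. In FC libraries 1 to 5 it had 68.4, 83.3, 31.2, 47.6 and 42.0 FPKM. The first pair of Immo+FC libraries was above every FC library as was library 4 by a small margin, while libraries 3 and 5 lay below FC library 2. The log2 fold change was 1.01 ± 0.39 (SE; adjusted p = 0.517, limma) and 0.54 without the 2 libraries. Il1r2, the decoy receptor that binds IL-1 without signalling and is also glucocorticoid-inducible, had 96.7, 113, 31.9, 42.2 and 18.8 FPKM in Immo+FC and 23.5, 36.1, 12.9, 15.1 and 20.1 FPKM in FC. Immo+FC libraries 3 and 5 lay within the FC range. The log2 fold change was 1.27 ± 0.50 (SE) with all libraries and 0.54 without the 2. Csf3r, the receptor for the growth factor G-CSF, was also highest in Immo+FC libraries 1 and 2, and ranged from 129.8 to 303 FPKM in Immo+FC and 71.6 to 156 FPKM in FC. C5ar2, a receptor for complement fragment C5a, had the smallest unadjusted p of the list (0.00916), with 11.7, 10.5, 5.45, 6.54 and 5.76 FPKM in Immo+FC and 5.66, 5.68, 2.66, 2.88 and 3.88 FPKM in FC. Next by p were Ccr1, a chemokine receptor (log2 fold change 1.26 ± 0.44, SE), and Trem1, an amplifier of inflammatory signalling (1.10 ± 0.39, SE). Fcgr4, an IgG receptor, had the smallest log2 fold change, 0.41 ± 0.29 (SE) with all libraries, and -0.00 without the 2.

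**Figure D1:**
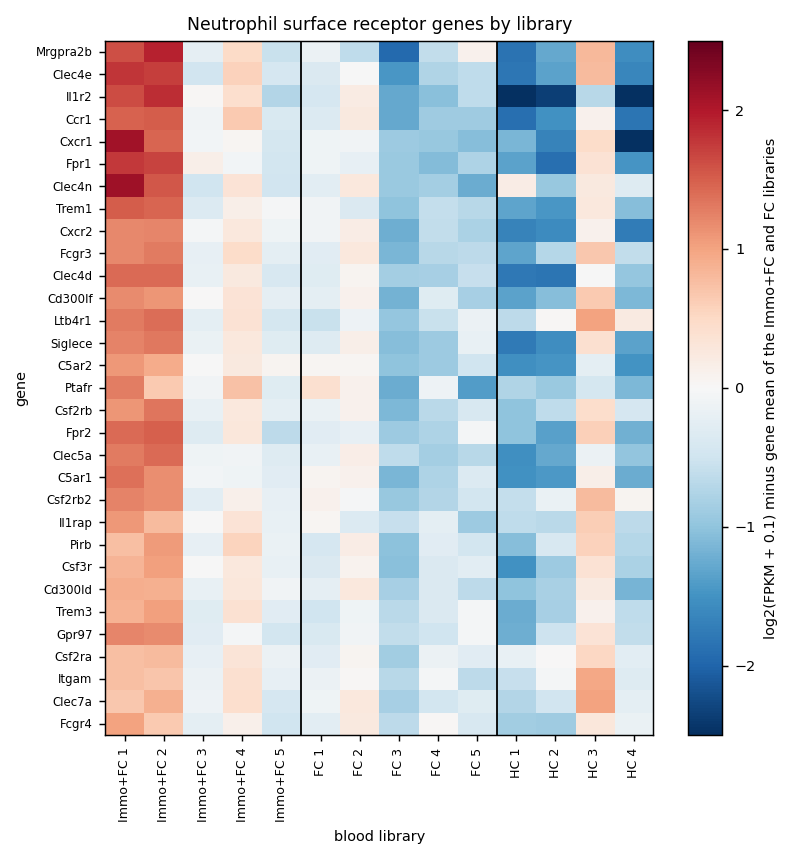
Log2(FPKM + 0.1) of the 31 neutrophil surface receptor genes (rows, ordered by log2 fold change) in the 14 blood libraries (columns, separated by lines into Immo+FC, FC and HC), as the difference from each gene's mean over the 10 Immo+FC and FC libraries. Immo+FC libraries 1 and 2 are the darkest red in nearly every row, while Immo+FC libraries 3 and 5 are close to the FC libraries, and HC library 3 is higher than the other HC libraries.

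The promoters of these receptor genes were examined after the values were seen. The list was chosen as neutrophil genes, so the shares below describe such genes and are not a result of the comparison. PU.1, a transcription factor of myeloid cells, binds purine-rich sites, and the letters GAGGAAG were searched on both strands of the 250 bases before the start of transcription. They were found in 13 of 28 receptor genes with a promoter in the RefSeq table (46.4%) and in 11 of 26 neutrophil granule genes (42.3%), against 11.2% of 9232 tested genes. The C/EBP letters TTGCNNAA were found in 10.7% of the receptor genes, 30.8% of the granule genes and 7.65% of all. In 16 promoters of B cell identity genes, searched in the same way, the shares were 12.5% for GAGGAAG and 18.8% for TTGCNNAA. The 3 receptor promoters with 2 matches to GAGGAAG are shown because they carry the most matches in the list, with the matches on either strand in capitals.
Csf2ra (chr19:61228419-61228668, minus strand, GRCm38.p6): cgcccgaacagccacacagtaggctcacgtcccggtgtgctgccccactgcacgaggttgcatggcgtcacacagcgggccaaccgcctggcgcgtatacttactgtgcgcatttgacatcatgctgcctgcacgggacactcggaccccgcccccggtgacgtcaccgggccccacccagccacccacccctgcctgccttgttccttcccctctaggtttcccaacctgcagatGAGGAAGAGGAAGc
Clec5a (chr6:40585806-40586055, minus strand, GRCm38.p6): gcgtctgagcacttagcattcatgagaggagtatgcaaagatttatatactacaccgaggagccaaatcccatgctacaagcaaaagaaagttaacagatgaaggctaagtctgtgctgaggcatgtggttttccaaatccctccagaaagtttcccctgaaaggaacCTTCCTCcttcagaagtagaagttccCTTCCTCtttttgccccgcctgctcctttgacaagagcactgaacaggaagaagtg
Siglece (chr7:43660162-43660411, minus strand, GRCm38.p6): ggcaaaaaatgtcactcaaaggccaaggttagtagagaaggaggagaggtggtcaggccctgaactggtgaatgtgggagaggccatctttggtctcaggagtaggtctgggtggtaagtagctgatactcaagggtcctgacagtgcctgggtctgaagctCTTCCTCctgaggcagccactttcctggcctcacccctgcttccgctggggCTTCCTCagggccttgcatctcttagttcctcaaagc

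In Csf2ra, the alpha chain of the GM-CSF receptor, the matches overlap. They lie inside the annotated span of the gene, which extends past the start used, to chr19:61228461. The whole Siglece window likewise lies inside the span of that gene, chr7:43648882-43672044. Csf2ra had 90.6, 92.5, 46.4, 66.9 and 48.6 FPKM in Immo+FC and 44.0, 56.3, 29.3, 48.6 and 44.3 FPKM in FC (log2 fold change 0.60 ± 0.23, SE). Clec5a, a lectin receptor of myeloid cells, had 12.5, 13.7, 4.69, 4.77 and 3.99 FPKM in Immo+FC and 4.43, 5.67, 3.21, 2.75 and 3.09 FPKM in FC. Siglece, an inhibitory sialic acid receptor, had 41.8, 44.3, 15.8, 21.3 and 14.3 FPKM against 14.2, 19.5, 8.39, 9.35 and 15.5 FPKM. All 3 genes were highest in Immo+FC libraries 1 and 2. Genes whose groups did not overlap held the PU.1 letters about as often as all genes, in 8 of 71 promoters (11.3%) where Immo+FC was above FC and 9 of 79 (11.4%) where it was below. The NF-kB element was found in 7.04% and 10.1% of these promoters against 8.58% of all, and the glucocorticoid response element in 1 of 71 and 0 of 79 against 0.108% of all. In the receptor, granule and B cell lists the NF-kB element was found in 17.9%, 19.2% and 18.8% of promoters. A match describes these letters in this window and is not a measured binding site.

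Genes for neutrophil granule proteins did not follow a single order of libraries. Of 30 tested, 5 were nominally higher in Immo+FC (Lyz2, Padi4, Arg2, Cfp and Olfm4) and 0 nominally lower, 29 of the 30 were above 0, and the median log2 fold change was 0.79, and 0.35 without the 2 libraries. The count of 5 was 1 without Immo+FC library 2, 2 without Immo+FC library 1 or FC library 3, 3 without FC library 4, 8 without Immo+FC library 3, 13 without Immo+FC library 5, 17 once HC library 3 was dropped, and 16 in a fit of the 10 libraries alone. Padi4, the enzyme that citrullinates histones, had the smallest unadjusted p of this list (0.012) and a log2 fold change of 0.86 ± 0.30 (SE), followed by Olfm4 (1.27 ± 0.49, SE) and Cfp, properdin (0.91 ± 0.36, SE). Mmp8, a collagenase, had 122, 156, 36.1, 49.4 and 23.2 FPKM in Immo+FC and 34.7, 42.0, 15.7, 20.6 and 23.99 FPKM in FC, again highest in Immo+FC libraries 1 and 2. S100a9, a subunit of the calprotectin complex of mature neutrophils, had 14191, 20233, 6519, 8761 and 5669 FPKM in Immo+FC and 4905, 5959.8, 3787, 4302 and 9059 FPKM in FC. Granule genes made early in maturation followed another order. Camp, the cathelicidin precursor, had 20.01, 226, 191, 192 and 93.3 FPKM in Immo+FC and 60.6, 4.199, 125, 62.9 and 498 FPKM in FC. Immo+FC library 1, among the highest for receptors, was the lowest of its group for Camp, and FC library 5 was the highest of all 10. Elane, neutrophil elastase of the promyelocyte stage, had 1.57, 10.4, 11.5, 7.75 and 4.43 FPKM against 2.67, 0, 9.46, 3.54 and 31.9 FPKM. Its log2 fold change was 0.91 ± 1.36 (SE), so the groups differed by less than their spread. Ltf, lactoferrin, had a log2 fold change of -0.20 ± 0.65 (SE), and Mpo, myeloperoxidase, of 0.14 ± 1.02 (SE).

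Monocyte genes lay in the same direction as neutrophil receptors. Of 30 tested, 12 were nominally higher and 1 nominally lower, against 5.87% and 3.75% of all genes. The median was 0.69, and 0.24 with 0 nominally higher without Immo+FC libraries 1 and 2. The count of 12 was 3 without Immo+FC library 1, 2 without Immo+FC library 2, 3 without Immo+FC library 4 or FC library 3, 6 without FC library 5 and 20 without Immo+FC library 5. Vcan, a proteoglycan of inflammatory monocytes, had 14.7, 19.4, 2.17, 10.6 and 1.55 FPKM in Immo+FC and 2.84, 3.48, 0.512, 1.40 and 1.21 FPKM in FC, with a log2 fold change of 1.97 ± 0.77 (SE). Ccr2, the receptor that brings inflammatory monocytes out of marrow, had 199, 228, 66.4, 174 and 45.9 FPKM in Immo+FC and 72.9, 104, 25.4, 51.8 and 36.1 FPKM in FC. In both genes Immo+FC libraries 1, 2 and 4 were above every FC library and libraries 3 and 5 were not. Msr1, a scavenger receptor, had the smallest unadjusted p of the list (0.00859), with a log2 fold change of 1.62 ± 0.53 (SE) and 1.03 without the 2 libraries. Klf4, which takes part in monocyte formation, had a log2 fold change of 0.39 ± 0.15 (SE). Ace, angiotensin-converting enzyme, a marker of patrolling monocytes, was the nominally lower gene and 1 of 6 below 0, with 4.57, 7.23, 9.05, 13.5 and 16.6 FPKM in Immo+FC and 11.2, 12.4, 14.04, 23.7 and 16.1 FPKM in FC.

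Lymphocyte genes lay on the other side of 0, by smaller amounts. All 22 B cell identity genes were below 0, with a median of -0.38, and 8 were nominally lower, against 3.75% of all genes. Without Immo+FC libraries 1 and 2 all 22 were still below 0, with a median of -0.19, and 0 had an unadjusted p under 0.05. The count of 8 was 0 without Immo+FC library 1 or library 2 alone, 1 without FC library 3 or 5, 3 without FC library 2, 5 without Immo+FC library 4 or HC library 1, 14 without Immo+FC library 3 and 17 once HC library 3 was dropped. Cd79b, a signalling chain of the B cell receptor, had 579, 659.9, 765, 781 and 798 FPKM in Immo+FC and 839, 916, 1033, 895 and 1118 FPKM in FC. It was the B cell gene whose groups did not overlap, with a log2 fold change of -0.43 ± 0.17 (SE; adjusted p = 0.517, limma) and -0.29 without the 2 libraries. All 24 T cell genes were below 0 as well, with a median of -0.23 and 2 nominally lower (Cd3d and Cd4). Without the 2 libraries 9 of the 24 T cell genes were above 0 and the median was -0.08. Leaving out 1 library at a time gave 0 to 11 nominally lower T cell genes, with 0 without Immo+FC library 1 or 2 or FC library 3, 4 or 5, 9 without FC library 2 and 11 without Immo+FC library 5. Cd4, the coreceptor of helper T cells, had 16.1, 13.6, 19.1, 15.7 and 21.9999 FPKM in Immo+FC and 17.2, 18.4, 25.3, 35.1 and 21.4 FPKM in FC. Natural killer genes had a median of -0.18, with 1 of 20 nominally higher (Cd244) and 0 nominally lower, against 5.87% and 3.75% of all genes. Without Immo+FC libraries 1 and 2 their median was -0.01 and 8 of 20 were above 0. In the dendritic cell list 3 of 14 genes were nominally lower, all of them MHC class II genes (H2-Ab1, H2-Aa and H2-Eb1), and 0 without Immo+FC libraries 1 and 2. H2-Ab1 had 981, 1194, 1436, 1425 and 1450.3 FPKM in Immo+FC and 1576, 1616, 1742, 1529 and 1985 FPKM in FC, and the groups did not overlap. B cells also carry these transcripts.

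**Figure D2:**
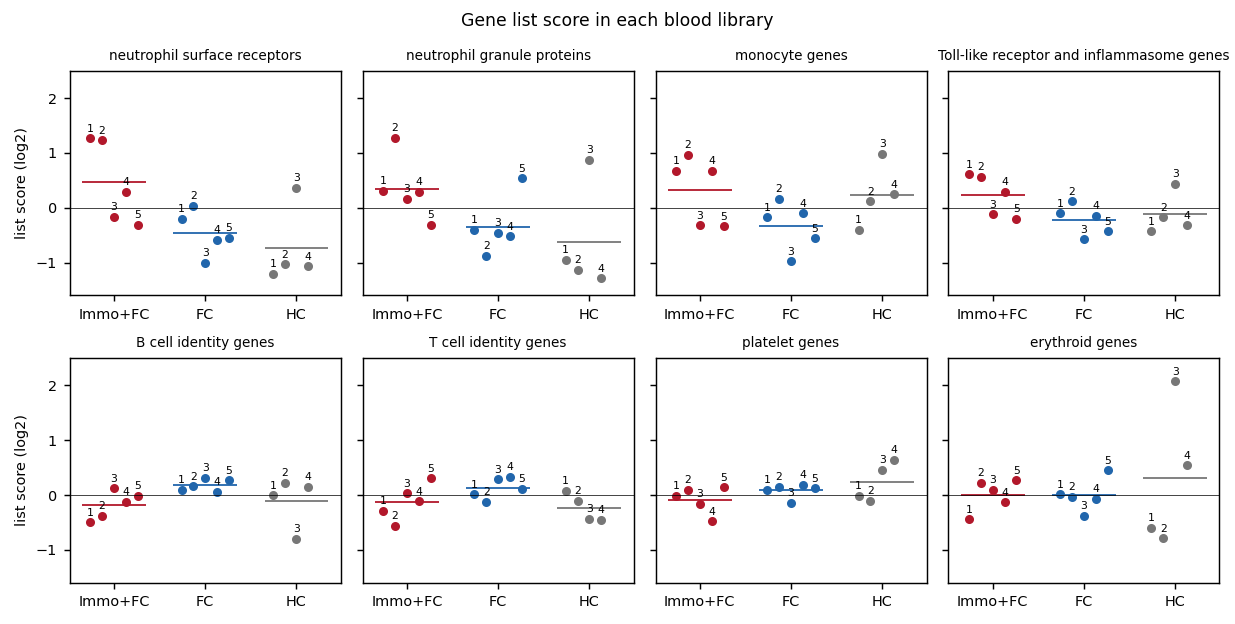
List score in each blood library, the mean over a list's tested genes of log2(FPKM + 0.1) minus the gene's mean over the 10 Immo+FC and FC libraries; points are libraries with their number, and lines are group means. The neutrophil receptor score is 1.26 and 1.23 in Immo+FC libraries 1 and 2 and -0.32 to 0.29 in the other 3, against -0.9993 to 0.03 in FC, and the B cell score is lowest among the 10 in the same 2 libraries.

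Platelet genes were mostly below 0, in 20 of 22, by small amounts. Of 22 platelet genes 3 were nominally lower (Itga2b, Gp1ba and F5), against 3.75% of all genes. The median was -0.10, and -0.21 without Immo+FC libraries 1 and 2. Itga2b, the platelet integrin chain that binds fibrinogen, had 253, 341, 266, 243 and 424 FPKM in Immo+FC and 423, 415, 409, 503 and 456 FPKM in FC. Its log2 fold change of -0.56 ± 0.18 (SE) was -0.55 without the 2 libraries, nearly the same value. Gp1ba, the receptor for von Willebrand factor, had log2 fold changes of -0.44 ± 0.17 (SE) and -0.44. The platelet count of 3 was 1 without Immo+FC library 1, Immo+FC library 4 or FC library 4, and 5 or 6 without Immo+FC library 2, Immo+FC library 5 or HC library 3. Of 27 erythroid genes 0 had an unadjusted p under 0.05, and the median was -0.02. Both lists depended on the covariate: with the percent mapped to a single place the platelet median was -0.34 with 8 nominally lower and the erythroid median -0.79 with 19 nominally lower, and with the B and T cell score the medians were -0.30 and -0.59 with 6 and 0 nominally lower. Summed erythroid FPKM ranged from 29814 to 56951 in Immo+FC and from 24791 to 45571 in FC.

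Innate sensing genes were mostly above 0. Of 37 Toll-like receptor and inflammasome genes 13 were nominally higher and 0 nominally lower, against 5.87% and 3.75% of all genes. Their median was 0.42, and 0.16 without Immo+FC libraries 1 and 2. The smallest unadjusted p values were those of Myd88, the adaptor of Toll-like receptors (log2 fold change 0.83 ± 0.28, SE), Nlrp3 and Nlrp1a. Mefv, the gene for pyrin, had 16.8, 18.1, 7.13, 14.5 and 6.34 FPKM in Immo+FC and 4.95, 8.19, 1.51, 5.58 and 2.84 FPKM in FC, with a log2 fold change of 1.51 ± 0.52 (SE) and 1.11 without the 2 libraries. Nlrp3, the sensor of the best known inflammasome, had 15.2, 14.9, 6.32, 7.05 and 7.45 FPKM against 4.55, 7.68, 3.48, 5.50 and 3.64 FPKM, with only FC library 2 inside the Immo+FC range. Among 26 cytokine and chemokine ligands 9 were nominally higher and 0 nominally lower, with the smallest p for Il18, Tnfsf14 and Tnfsf13b. Of these ligands 15 were above 0 and 11 below, with a median of 0.15. Il18, an inflammasome substrate, had 16.9, 17.6, 8.32, 10.8 and 7.20 FPKM in Immo+FC and 6.49, 7.25, 7.004, 7.86 and 6.36 FPKM in FC. Il1b, the main inflammasome cytokine, had a log2 fold change of 0.53 ± 0.30 (SE), and Tnf of 0.02 ± 0.19 (SE). Interferon response genes had 7 nominally higher and 0 nominally lower of 40, with a median of 0.18, iron handling genes 4 and 0 of 22, and glycolysis and HIF target genes 7 and 0 of 24. The iron list shares Lcn2, Ltf and Hp with the neutrophil granule list. Without the 2 libraries, 0 genes of the Toll-like receptor, cytokine, interferon and glycolysis lists and 1 iron gene had an unadjusted p under 0.05 in the higher direction. Leaving out 1 library at a time gave 5 to 19 nominally higher Toll-like receptor genes, 5 to 10 cytokine genes, 1 to 13 interferon genes, 1 to 9 iron genes and 2 to 9 glycolysis genes, with the counts lowest or tied for lowest without Immo+FC library 2 in each. The part of neutrophil and monocyte share in these lists was not tested. The fit with the B and T cell score in the closing section cannot test it, because that score is made of expression values of the same libraries.

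**Figure D3:**
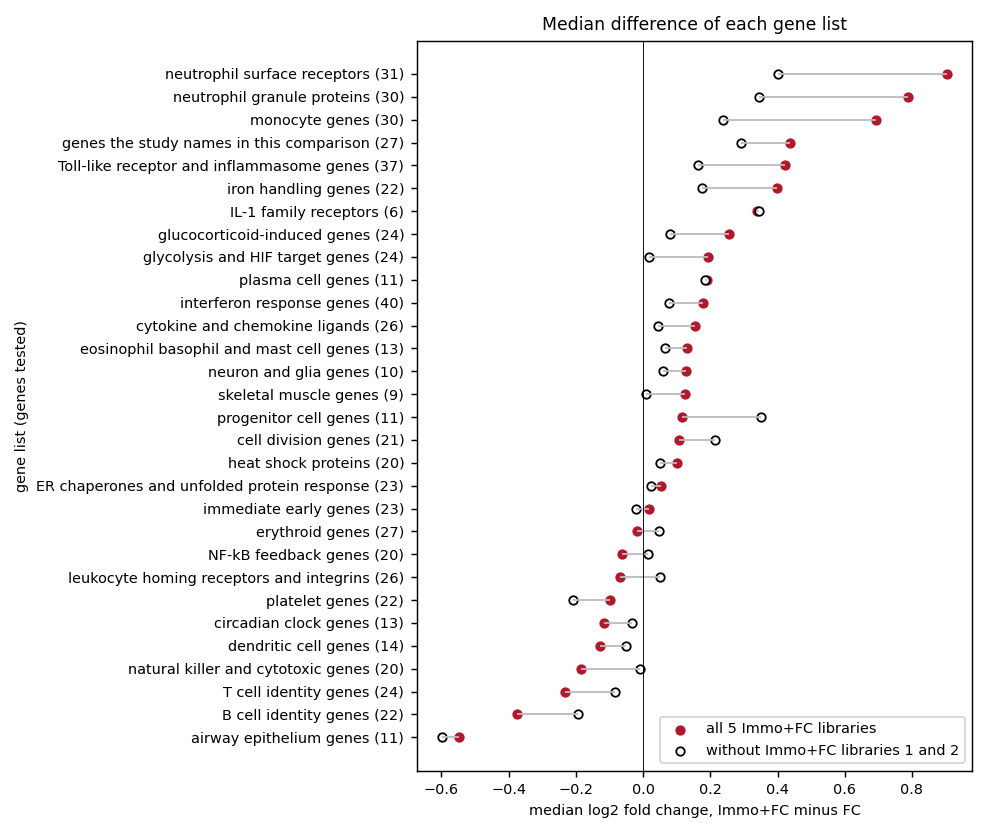
Median log2 fold change (Immo+FC minus FC) of each of 30 gene lists with all libraries (filled) and without Immo+FC libraries 1 and 2 (open); the number of genes tested stands beside each list. The medians of the neutrophil, monocyte and B cell lists lie closer to 0 without the 2 libraries, from 0.90 to 0.40 for neutrophil receptors, while the plasma cell and airway medians move little.

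Genes that respond to glucocorticoids were mostly above 0, in 18 of 24 tested, with 6 below. Of the 24, 6 were nominally higher and 1 nominally lower, against 5.87% and 3.75% of all genes, with a median of 0.26. Without Immo+FC libraries 1 and 2 the median was 0.08, with 15 above 0 and 1 nominally higher. Without FC library 3 the count of nominally higher genes was 2. Fkbp5, the cochaperone that restrains the glucocorticoid receptor (chr17:28398753-28486149), had 15.2, 18.1, 8.25, 8.54 and 8.19 FPKM in Immo+FC and 7.48, 6.53, 6.46, 7.45 and 7.51 FPKM in FC. The groups did not overlap, but the gap between the nearest libraries was small beside the values of Immo+FC 1 and 2. The log2 fold change was 0.63 ± 0.22 (SE; adjusted p = 0.517, limma) and 0.23 without the 2. Tsc22d3, the gene for the glucocorticoid-induced leucine zipper, had 169, 193, 185, 261 and 258 FPKM in Immo+FC and 166, 222, 182, 208 and 312 FPKM in FC, a log2 fold change of -0.02 ± 0.20 (SE). Ddit4, an inhibitor of mTOR signalling, had 15.8, 14.9, 20.7, 19.7 and 18.97 FPKM against 15.6, 15.2, 14.1, 16.8 and 14.01 FPKM, with the higher values in libraries 3 to 5. Pik3ip1, an inhibitor of PI3 kinase found in resting T cells, was the nominally lower gene and 1 of 6 in the list below 0, with 20.4, 18.8, 25.0, 21.2 and 21.5 FPKM in Immo+FC and 25.0, 24.5, 30.2, 32.2 and 28.2 FPKM in FC. Of 13 clock genes 0 were nominally higher and 1 nominally lower (Tef), and Per1 had a log2 fold change of -0.13 ± 0.12 (SE).

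Among immediate early genes, 7 of 23 were nominally higher and 0 nominally lower, with a median of 0.02. The 7 became 3 without Immo+FC library 1 or library 2, 4 without FC library 3 or 5, and 1 without both Immo+FC libraries, where the median was -0.02. Fosl2, an AP-1 subunit, had 17.5, 17.4, 7.19, 7.49 and 7.92 FPKM in Immo+FC and 6.27, 7.12, 3.10, 6.55 and 5.15 FPKM in FC, and the groups did not overlap. Fos, another AP-1 subunit, ranged from 11.4 to 157 FPKM in Immo+FC and from 20.6 to 129 FPKM in FC. Klf6, a zinc finger factor, had 44.1, 40.9, 39.7, 43.2 and 45.8 FPKM against 35.4, 41.1, 35.5, 34.5 and 32.9 FPKM. Its log2 fold change was 0.25 ± 0.08 (SE), and 0.26 without Immo+FC libraries 1 and 2. Among NF-kB feedback genes 5 of 20 were nominally higher, against 5.87% of all genes, and 0 lower, with the smallest p for Socs3, Bcl3 and Ier3. Most of this list lay on the other side, with 8 genes above 0, 12 below and a median of -0.06. Without Immo+FC libraries 1 and 2, 1 of 20 was nominally higher. Of 23 ER chaperone genes 4 were nominally higher, and of 20 heat shock genes 1, the cochaperone Dnaja1. Hspa1a, the stress-induced HSP70, was at 2.91 FPKM in Immo+FC library 1 and at 0.0908 to 0.628 FPKM in the other 9.

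The genes with the smallest unadjusted p among those at a mean of 1 FPKM or more whose groups did not overlap were examined next, 10 in each direction. In the higher direction Socs3, the feedback inhibitor of IL-6 and G-CSF signalling (chr11:117966079-117970336), had the largest difference. It had 88.0, 96.5, 45.2, 69.2 and 48.2 FPKM in Immo+FC and 31.1, 43.1, 27.4, 39.6 and 33.2 FPKM in FC, and every Immo+FC library was above the highest FC library. The log2 fold change was 0.94 ± 0.25 (SE; adjusted p = 0.517, limma) and 0.63 without Immo+FC libraries 1 and 2. Kdm6b, the histone H3 lysine 27 demethylase JMJD3 (chr11:69398508-69420367), had 8.42, 7.31, 6.28, 5.07 and 5.36 FPKM in Immo+FC and 3.74, 4.78, 3.80, 4.02 and 3.45 FPKM in FC. Its log2 fold change was 0.68 ± 0.18 (SE) and 0.49 without the 2. Dnaja1, listed jointly with Mir207, had 12.96, 10.3, 8.70, 8.83 and 9.84 FPKM against 7.504, 6.44, 8.27, 6.28 and 6.56 FPKM. Coa6, an assembly factor of cytochrome c oxidase (chr8:126422501-126425435), had the smallest unadjusted p of the higher genes (0.000943), with 21.7, 21.8, 23.7, 26.5 and 22.8 FPKM in Immo+FC and 18.2, 15.5, 19.8, 15.9 and 19.4 FPKM in FC. Coa6 did not follow the neutrophil order of libraries, and its log2 fold change was 0.39 ± 0.09 (SE) with all libraries and 0.46 without the 2. The other higher genes were Zbtb39, Fam122a, Nr2f6, Ppp1r15b, Maml1 and Pdcd2l, with log2 fold changes of 0.31 to 0.57. Ppp1r15b, which directs dephosphorylation of the initiation factor eIF2 alpha, had 23.7, 23.3, 21.7, 24.1 and 20.9 FPKM against 19.4, 20.4, 18.4, 17.2 and 16.5 FPKM.

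Lower in all 5 Immo+FC libraries were transcripts of the RNA-binding cold-shock genes Cirbp and Rbm3. Cirbp (chr10:80165990-80172786) had 43.0, 41.4, 58.5, 50.5 and 53.0 FPKM in Immo+FC and 73.0, 65.4, 85.6, 80.6 and 99.7 FPKM in FC, with a log2 fold change of -0.71 ± 0.20 (SE) and -0.57 without Immo+FC libraries 1 and 2. Rbm3 (chrX:8138975-8145880), which is named by the study and falls outside the 10 lowest by p, had 58.8, 80.2, 81.8, 100.2 and 89.1 FPKM in Immo+FC and 103, 101, 123, 109 and 129 FPKM in FC. Its groups nearly met, at 100.2 and 101 FPKM, and the log2 fold change was -0.48 ± 0.17 (SE) and -0.32 without the 2. Erdr1 (chrX:170010526-170018797), a gene of erythroid differentiation regulation, had 31.9, 32.5, 35.4, 32.1 and 37.4 FPKM in Immo+FC and 61.3, 51.3, 71.1, 99.9 and 71.4 FPKM in FC. The Immo+FC values lay within a narrow range below all FC values, and HC libraries had 64.1, 85.7, 26.9 and 79.9 FPKM. Its log2 fold change was -1.03 ± 0.26 (SE; adjusted p = 0.517, limma) and -0.99 without the 2 libraries. Nat10, the RNA cytidine acetyltransferase (chr2:103721258-103762954), had the smallest unadjusted p among the lower genes (0.000702), with 4.52, 5.26, 5.22, 5.67 and 5.71 FPKM against 6.67, 6.54, 7.74, 8.16 and 7.19 FPKM. The mitochondrial genes Pccb, a subunit of propionyl-CoA carboxylase, and Slc25a40, a carrier, had log2 fold changes of -0.46 and -0.40. Tatdn3 and the uncharacterized transcripts 2610035D17Rik, A930024E05Rik, 2010315B03Rik and 1300002E11Rik had log2 fold changes of -0.47, -0.51, -0.73, -0.46 and -0.60.

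**Figure D4:**
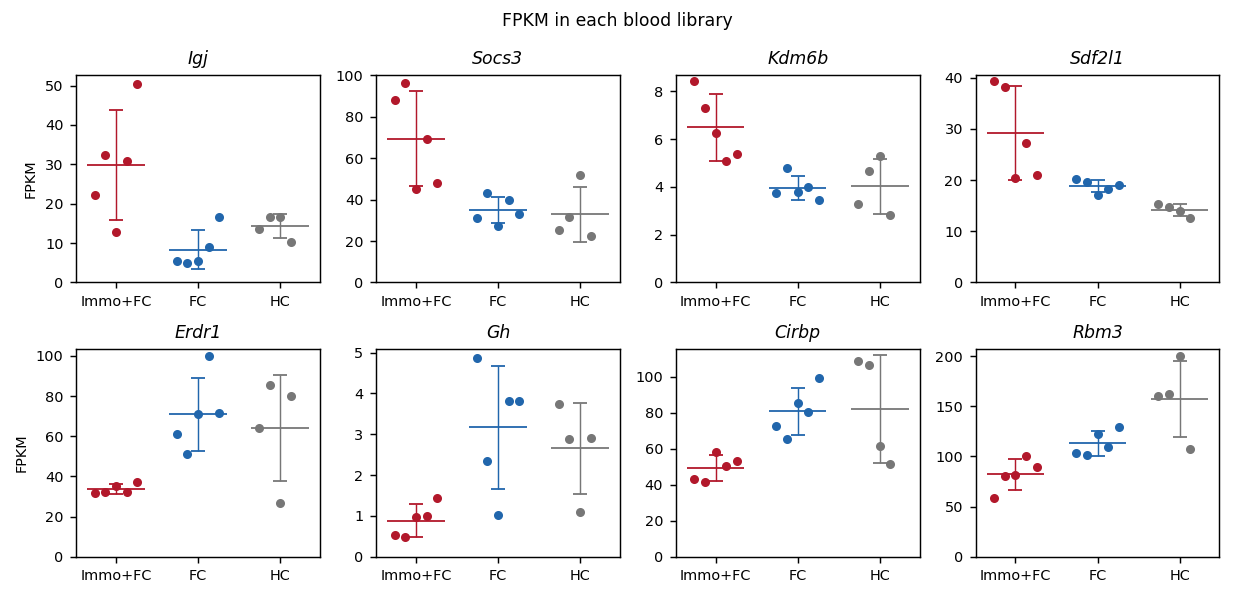
FPKM of 8 genes in each blood library by group; points are libraries in order of their number, horizontal lines are means and bars are SD (n = 5, 5 and 4). Socs3, Kdm6b and Sdf2l1 are higher and Erdr1, Cirbp and Rbm3 lower in every Immo+FC library than in any FC library, while Igj and Gh each have libraries that overlap.

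Igj, the joining chain of secreted IgA and IgM, now named Jchain (chr5:88519809-88527897), had the smallest unadjusted p of all tested genes (0.000138) and belongs to the plasma cell list. It had 22.3, 32.5, 12.9, 30.9 and 50.5 FPKM in Immo+FC and 5.53, 4.94, 5.47, 9.09 and 16.7 FPKM in FC, so that Immo+FC library 3 lay below FC library 5. The log2 fold change was 1.85 ± 0.36 (SE; adjusted p = 0.517, limma) and 1.86 without Immo+FC libraries 1 and 2. HC libraries had 13.5, 16.7, 16.7 and 10.2 FPKM, between the means of Immo+FC (29.8 ± 13.9 FPKM, SD, n = 5) and FC (8.35 ± 4.96 FPKM, SD, n = 5). Tnfrsf17, the plasma cell survival receptor BCMA, had 1.60, 2.22, 0.227, 2.29 and 1.90 FPKM against 0, 0.677, 0.196, 0.209 and 1.15 FPKM, again with Immo+FC library 3 low. Of the 11 plasma cell genes tested, 8 were above 0 and 3 below, and the list median was 0.19. Mzb1 had a log2 fold change of -0.12 and Sdc1, syndecan-1, the lowest of the list, of -0.22. Without Immo+FC libraries 1 and 2 all 11 were above 0, with a median of 0.18. Xbp1, the transcription factor of secretory cells, was higher (log2 fold change 0.76 ± 0.26, SE) and highest in Immo+FC libraries 1 and 2. Spink2, a protease inhibitor of progenitor cells (chr5:77205106-77216258), had 2.60, 1.67, 1.36, 1.47 and 1.07 FPKM in Immo+FC and 0.340, 0.339, 0.587, 0 and 0 FPKM in FC. The groups did not overlap, but the values were near the lower limit and a fold change against values of 0 depends on the pseudocount.

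A further set of 27 genes was taken from the study, which listed them for this comparison in both amygdala and blood. The set is therefore not the study's list for blood, and since it was chosen partly on these same libraries, its counts are not independent evidence. In the study only some of the 27 stayed significant in both tissues after correction for multiple testing. With Cuffdiff the study did report genes past its corrected threshold in blood, most of them higher in Immo+FC. Its method and the limma fit on FPKM are unlike. In limma 0 of the 27 passed an adjusted p of 0.05, 7 were nominally higher and 8 nominally lower, and 17 had a log2 fold change above 0. Leaving out 1 library at a time gave 3 to 12 nominally higher, the lowest without Immo+FC library 1 or 4 or FC library 3 and the highest without HC library 3, and 3 to 9 nominally lower. In the exact permutation test, two-sided over all assignments of the 10 libraries to groups of 5, 15 of the 27 had a p under 0.05, against 9.61% of all tested genes. The smallest p the design allows, 0.00794, was reached by 4 of the 27 and by 1.58% of all tested genes. These 4 were Erdr1, Rbm3, Sdf2l1 and Endou. Sdf2l1, a chaperone of the endoplasmic reticulum (chr16:17130138-17132383), had 39.3, 38.1, 20.3, 27.2 and 21.0071 FPKM in Immo+FC and 20.2, 19.6, 17.0, 18.2 and 19.02 FPKM in FC. Its lowest Immo+FC and highest FC values were almost equal, and its log2 fold change of 0.58 ± 0.17 (SE) was 0.27 without Immo+FC libraries 1 and 2. Creld2, another chaperone of the endoplasmic reticulum and not among the 27, also had no overlap (log2 fold change 0.26 ± 0.09, SE). Endou, an endoribonuclease, was at 0.845, 0.912, 1.24, 1.03 and 1.17 FPKM against 1.31, 1.54, 1.98, 2.12 and 1.83 FPKM.

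Gh, the growth hormone gene (chr11:106300261-106303703), had the lowest log2 fold change of the 27 genes, -1.66 ± 0.42 (SE; adjusted p = 0.517, limma; exact permutation p = 0.0159). It had 0.524, 0.483, 0.984, 0.993 and 1.44 FPKM in Immo+FC and 4.87, 2.35, 1.02, 3.81 and 3.81 FPKM in FC, so that FC library 3 lay within the Immo+FC range. HC libraries had 3.75, 2.88, 1.10 and 2.92 FPKM. Gh is made in pituitary cells. Of the other pituitary genes looked up, Prl, Cga, Lhb and Fshb were listed at 0 in all 10 libraries, while Tshb was at 0.393 FPKM in FC library 2 and Pou1f1 at 0.177 FPKM in FC library 3 and both at 0 in the other 9. Pomc, which encodes the ACTH precursor, was at 0 to 1.07 FPKM over the 10 libraries, under the limit for testing.

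Lcn2, the neutrophil iron scavenger lipocalin 2, had 226, 409, 169.9, 147 and 93.0 FPKM in Immo+FC and 78.9, 59.2, 93.8, 68.1 and 244 FPKM in FC. FC library 5, high in immature granule genes, lay above 4 of the 5 Immo+FC libraries, and the exact permutation p was 0.111. Pde7b, a cAMP phosphodiesterase, had 4.43, 4.598, 1.91, 1.63 and 1.89 FPKM against 1.81, 1.35, 1.11, 1.38 and 0.885 FPKM, with a log2 fold change of 0.98 ± 0.31 (SE) and 0.47 without Immo+FC libraries 1 and 2. Thbd, thrombomodulin, had 4.43, 4.09, 2.99, 5.22 and 3.13 FPKM against 2.15, 3.01, 1.68, 2.93 and 2.57 FPKM, and only Immo+FC library 3 overlapped the FC values. Lbp, which carries lipopolysaccharide to its receptor, had an exact permutation p of 0.0397 and a limma log2 fold change of 0.80 ± 0.61 (SE). Nr4a1, an immediate early nuclear receptor, had 19.99, 21.3, 20.2, 21.3 and 23.9 FPKM against 22.7, 23.4, 24.5, 41.2 and 22.03 FPKM, so a single FC library carried most of the difference. Polr2a, the largest subunit of RNA polymerase II, had a log2 fold change of -0.35 ± 0.15 (SE), and F5, coagulation factor V, of -0.38 ± 0.17 (SE). Hpcal1, a neuronal calcium sensor, had a log2 fold change of 0.29 ± 0.18 (SE) with all libraries and -0.01 without the 2. Dmxl2, Fgd4, Trps1, Soat1, Cers6, Stxbp6, Lyst, Lnpep, Jhdm1d, Dnajb14 and Pcnx had log2 fold changes of 0.31 to 0.84, and Cdk5rap2, Prkdc and Pisd-ps3 of -0.46 to -0.31.

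Lists for other tissues and rarer cells follow, beside 5.87% of all tested genes nominally higher and 3.75% nominally lower. Of 11 tested airway epithelium genes, 0 had an unadjusted p under 0.05 and the median log2 fold change was -0.55. Scgb1a1, the club cell secretoglobin, had 28.7, 7.17, 5.85, 20.3 and 16.2 FPKM in Immo+FC and 28.3, 66.1, 27.5, 15.2 and 8.12 FPKM in FC. Of 9 skeletal muscle genes 1 was nominally higher, Tnnc2, at 0.817 to 1.78 FPKM against 0.255 to 1.15 FPKM, and of 10 neuron and glia genes 0 had an unadjusted p under 0.05. The eosinophil, basophil and mast cell list had 1 of 13 nominally higher (Siglec5), the progenitor list 1 of 11 (Spink2) and the IL-1 family receptors 2 of 6 (Il1rap and Il1r2), with 0 nominally lower in each. Il1rap and Il1r2 were already counted in the neutrophil receptor list, and Il1r2 in the glucocorticoid list. Of 26 homing receptors and integrins 7 were nominally higher and 2 lower, with the smallest p for Ccr1, Cxcr2 and Ccr2. In this list 11 genes were above 0 and 15 below, with a median of -0.07. Without Immo+FC libraries 1 and 2, 0 were nominally higher or lower. Ccr1 and Cxcr2 also belong to the neutrophil receptor list and Ccr2 to the monocyte list. Of 21 cell division genes 1 was nominally lower, the replication helicase subunit Mcm2 (log2 fold change -0.37).

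**Figure D5:**
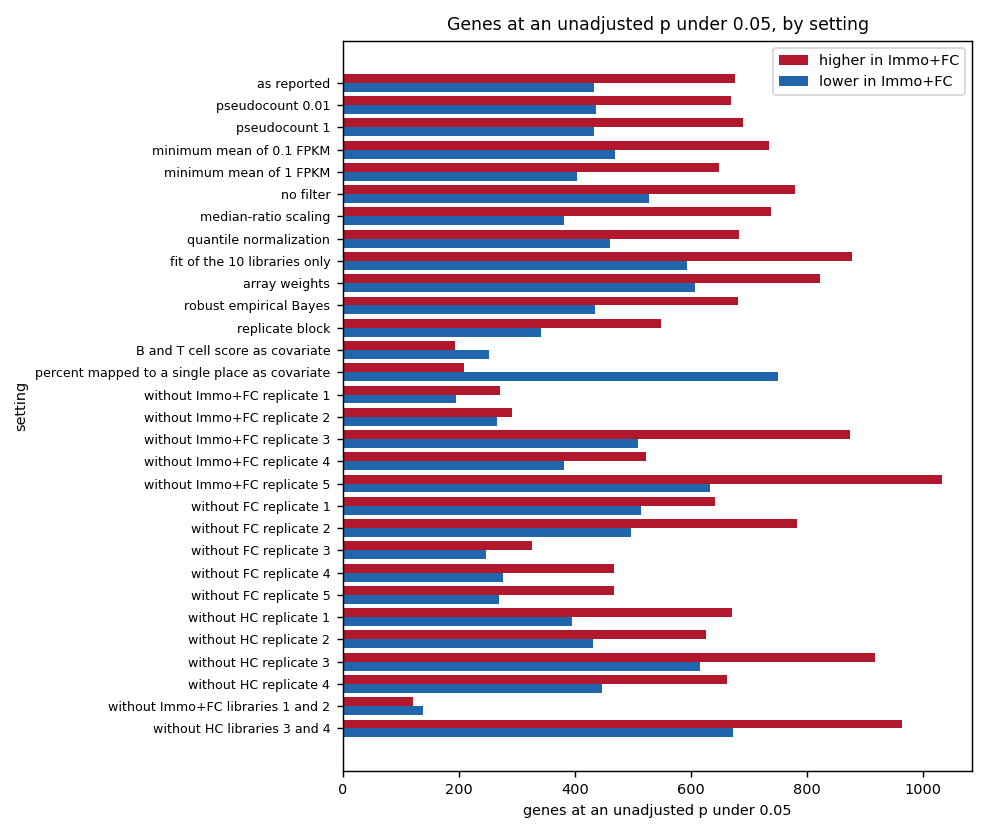
Number of genes at an unadjusted p under 0.05 in limma, higher (red) and lower (blue) in Immo+FC, for the fit as reported and for each alternative. The counts are 676 and 432 as reported and 120 and 138 without Immo+FC libraries 1 and 2, and in each setting 0 genes pass an adjusted p of 0.05.

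Compared with the handled home cage group, whose 4 libraries enter both comparisons with it, the same members are given side by side without a test. For Cxcr2 the log2 difference from HC was 1.73 in Immo+FC and 0.71 in FC, and for Il1r2 it was 2.74 and 1.47. For Socs3 it was 1.09 and 0.15, and for Kdm6b 0.70 and 0.01. For Erdr1 it was -0.79 and 0.24, for Cirbp -0.67 and 0.04, and for Rbm3 -0.93 and -0.45. For Igj it was 0.95 and -0.90, on opposite sides of the home cage level. The HC libraries differed among themselves, and libraries 3 and 4 enter these HC means. Cirbp had 109, 107, 61.5 and 51.4 FPKM in HC libraries 1 to 4, and Erdr1 had 26.9 FPKM in HC library 3, below every Immo+FC library.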

How the data were processed

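Per the submitters' processing notes, the tools were STAR 2.3, Cufflinks 2.1.1 and Cuffdiff 2.1.1 on the mm10 build, and the authors deposited FPKM per gene and library. The deposited FPKM table has 23303 entries, 272 of which join overlapping genes (150 of them tested). The deposited mapping table gives counts of sequences and percent values per library. FPKM keep no read counts, so counting error is unknown, although the sequence totals are given. Here log2(FPKM + 0.1) of 14 blood libraries was fitted with limma 3.58.1 (R 4.3.3; empirical Bayes with trend, Benjamini-Hochberg adjustment over 11512 genes), with 1 term per group. A fold change on this scale understates differences of low genes. The code was tested on simulated data. Single genes were also compared by an exact permutation test, with no adjustment over the list. The members and lists were chosen with earlier results of these data known. Some genes belong to several lists, so the list counts are not independent of each other. Named genes were the 10 per direction with the smallest unadjusted p among non-overlapping genes at 1 FPKM or more (filled this way because none passed the threshold), the 27 genes the study listed for both tissues, and up to 10 members per list, a few of which are not reported here. Igj, Spink2, pituitary genes and the list promoters were singled out after values were seen. Motifs were planned for genes past the threshold; with 0 such genes, non-overlapping genes were used. Promoters and positions are from RefSeq on GRCm38.p6, and 1 promoter per gene was searched. Replicate numbers did not pair the libraries, and no 2 libraries were identical.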

Additional observations from a re-analysis of the deposited data

Results flagged for a closer look

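Within groups of 4 or 5 libraries, a library was singled out where its gap to the nearest other library exceeded Dixon's 95% critical value for the group's range, which chance gives in about 1 in 20 groups. Of 234 groups tested, 14 were singled out (5.98%), close to that rate. In FC, library 5 had 243.8 FPKM of Lcn2 against 59.2 to 93.8 in the others, and library 4 had 41.16 FPKM of Nr4a1 against 22.03 to 24.5. In Immo+FC, library 4 had 19.94 FPKM of Pdcd2l against 15.3 to 16.4. The dendritic cell score was -0.2726 in Immo+FC library 1, the clock gene score was -0.1496 in Immo+FC library 2, and the skeletal muscle score was -0.1901 in Immo+FC library 5, each the lowest of its group.

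Among the HC libraries, library 3 was highest for the neutrophil granule score (0.8717, others -1.29 to -0.94), the neutrophil receptor score (0.3647, others -1.20 to -1.03), Lcn2 (213.9 FPKM), Fgd4 (2.656 FPKM) and Stxbp6 (5.725 FPKM). HC library 4 was highest for 1300002E11Rik (24.68 FPKM), lowest for Lyst (1.739 FPKM) and had the fewest sequences (9082000 to 4 digits, others at least 18550000).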

How the results depend on the processing

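The count of 0 genes past an adjusted p of 0.05 in limma held in all 29 alternatives, with a smallest adjusted p of 0.0647 (Erdr1, without HC library 3). The counts at an unadjusted p under 0.05 changed with covariates and with the libraries included: with the B and T cell score as a covariate they were 193 higher and 2.5e2 lower (rounded), with the percent mapped to a single place as a covariate 209 higher and 749 lower, without Immo+FC libraries 1 and 2 (added after seeing the data) 120 and 138, and without HC libraries 3 and 4 (also added) 964 and 672. Leaving out single libraries gave 270 to 1033 higher and 194 to 632 lower, the least without Immo+FC library 1 and 326 and 246 without FC library 3. Non-overlapping genes were 97 to 293 above and 114 to 292 below when 1 library was left out, and 191 and 192 without Immo+FC libraries 1 and 2; fewer libraries by construction leave more genes without overlap. Of 31 neutrophil receptor genes, 25 at an unadjusted p under 0.05 became 4 without Immo+FC library 1, 5 without library 2 and 6 without FC library 3, and 0 with either covariate. The B and T cell score is the mean of those lists' genes in the same libraries. A smaller difference with it is therefore partly built in, and that fit is no test of cell share. With a replicate block the counts were 548 higher and 342 lower; same-numbered libraries correlated at -0.0655 to 0.2156 and 2 of 5 Immo+FC libraries were closest to their own number, so the numbers were not taken as pairs. Several refits could not change the estimated difference: those with other filters, the 10 libraries alone, robust empirical Bayes, a replicate block or fewer HC libraries. Nor can leaving out Immo+FC or FC libraries reverse a gene whose groups do not overlap, as in the genes named for that. With these refits counted in, so that much of the agreement was fixed in advance, the direction of 46 named genes was kept in 1327 of 1334 refits. It reversed with the lymphocyte covariate for Soat1 (-0.0051), Stxbp6 (-0.0457), Jhdm1d (-0.0472), Endou (0.0385) and Hpcal1 (-0.0337), with the mapping covariate for Endou (0.0056), and without Immo+FC libraries 1 and 2 for Hpcal1 (-0.0077); the cause was not tested. Each library is a pool of 2 mice, and cell counts were not analysed here. The study did count blood cells, and reported a larger share of neutrophils and a smaller share of lymphocytes in Immo+FC than in FC. How far these shares account for the values above was not tested.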
